A study of Mus musculus with 6 samples.

Results

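The Bcl2 family genes described here were 10 genes of the mitochondrial death pathway, named by symbol: the BH3-only genes Bcl2l11, Pmaip1, Bbc3, Bid and Bik, the effectors Bax and Bak1, and the protective genes Mcl1, Bcl2l1 and Bcl2. A gene entered with each probe set whose annotation gave its symbol alone, and its brightest probe set on average over the 6 arrays represented it. By this rule 9 of the 10 genes were measured, with 30 probe sets among 45037, and 8 of the 9 were bright enough to be among the 9997 genes tested. Bik was too dim for the tests, and no probe set carried the symbol Bax alone, so the RNA level of Bax was not analysed here.

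Proteins of this family decide whether the outer membrane of the mitochondrion is opened. Bax and Bak1 form the pores, Mcl1, Bcl2l1 and Bcl2 hold them in check, and BH3-only proteins bind the protective members or, like the Bim protein of Bcl2l11, also activate the effectors directly. Pluripotent cells are known to sit close to the threshold for apoptosis, and Mcl1 protein turns over quickly, so transcript levels describe only part of its control.

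The samples were A2.miR200c cells, a single mouse ES cell line that carries miR-200c and miR-141 under a doxycycline-dependent promoter, differentiated as embryoid bodies. Induced bodies were given 500 ng/mL doxycycline on days 2 and 4, untreated bodies none, and RNA was taken from each on days 3, 4 and 5, so the induced day 3 array followed the day 2 addition only. There was 1 array for each treatment and day, 6 in all, and none of these 6 came from a doxycycline-treated line without the microRNAs, so doxycycline and the microRNAs cannot be told apart on these arrays. Values of a single day carry no error, and an SD is that of the 3 daily differences.

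Because the treatment is the expression of this pair of microRNAs, their mature sequences are shown, as annotated by RefSeq on GRCm38.p6, with the seed (bases 2 to 8) in capitals. Both lie on the minus strand of chromosome 6, at chr6:124718324-124718346 for miR-200c-3p and chr6:124717917-124717938 for miR-141-3p.
miR-200c-3p: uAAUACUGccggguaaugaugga
miR-141-3p: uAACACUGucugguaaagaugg
The seeds differ at 1 base, so the pair belongs to different seed groups. No probe set was named for either microRNA, so their own levels were not measured by these arrays.

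Array medians lay between 34.51 and 36.94, and 48.8 to 50.1% of probe sets exceeded the background of 36.67, which was set from 78 receptor genes of smell and taste. Hprt, a purine salvage gene whose locus holds the inducible cassette in lines of the A2lox type, measured 1671, 2539 and 2977 in induced bodies on days 3, 4 and 5, against 233.6, 124.8 and 102.1 in untreated bodies, so no array went against its label. Summed core pluripotency markers were 28520, 22180 and 16660 in induced bodies, against 29250, 21580 and 10900 in untreated bodies. Summed epithelial markers were 19530, 24660 and 31110 in induced bodies, against 17310, 18630 and 19450 in untreated bodies. Of the tested markers, 8 of 9 pluripotency genes and 8 of 8 epithelial genes were higher in induced bodies on day 5, while 0 of 6 blood and endothelium genes and 1 of 6 mesoderm genes were. Summed mesoderm markers were 3935 on day 4 and 12550 on day 5 in induced bodies, against 9280 and 13620 in untreated bodies.

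Bcl2l11 had the largest mean difference among the tested family genes that read higher with induction on each day. It encodes Bim, a BH3-only activator of apoptosis, and its main probe set (1456005_a_at, Entrez Gene 12125) read 1394.78, 1040.55 and 954.69 in induced bodies on days 3, 4 and 5, against 1118.10, 756.04 and 598.66 in untreated bodies. It was higher with induction on each day and lower from day to day in both treatments, and the induced day 5 level lay above the untreated day 4 level. On the log2(intensity + 50) scale, which understates changes of dim genes, the differences were 0.31, 0.44 and 0.63, a mean of 0.46 ± 0.16 (SD, n = 3 days) and a 1.55-fold higher level on day 5.

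**Figure D1:**
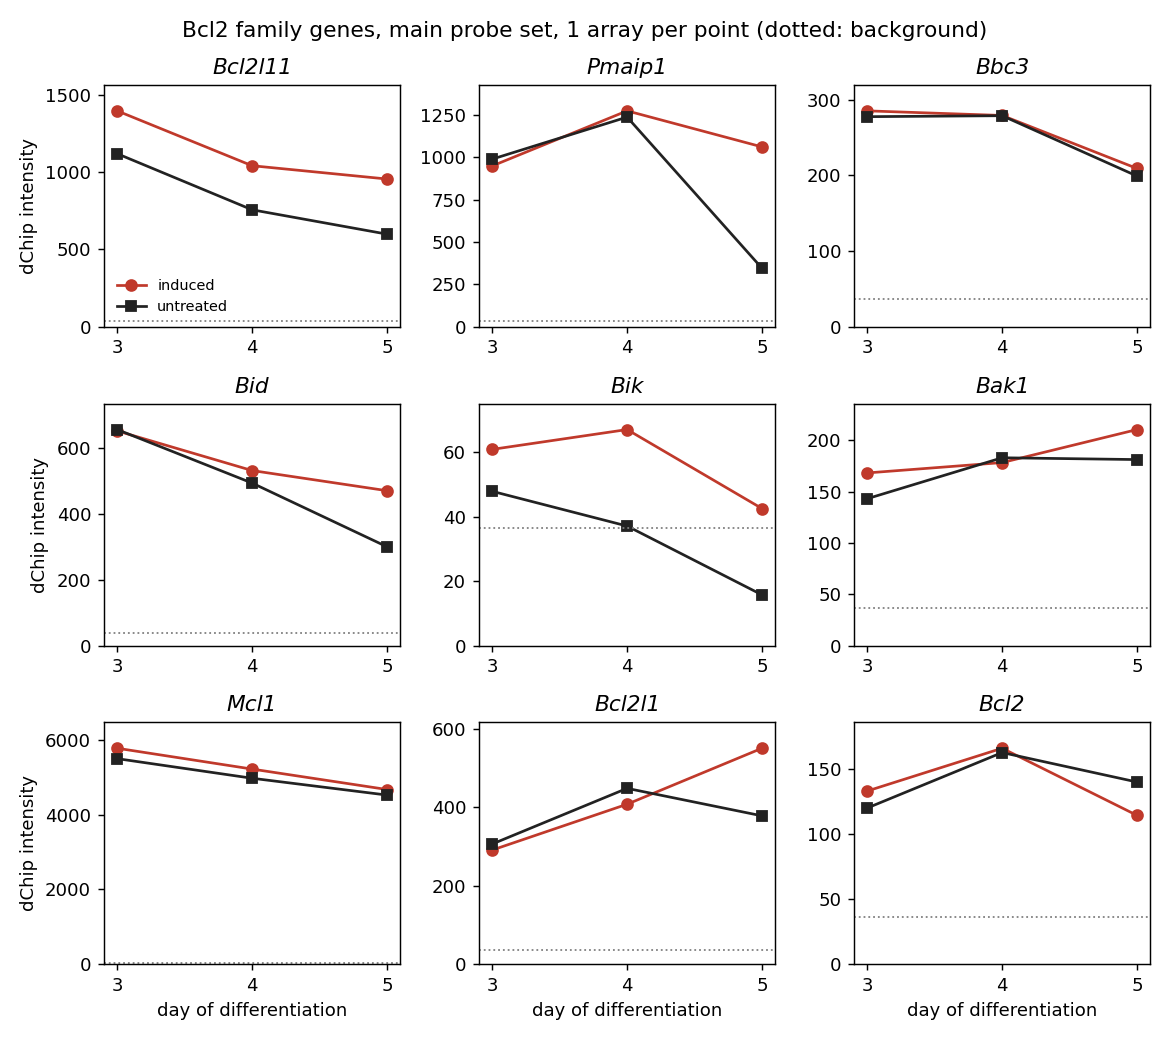
Intensity of the main probe set of each measured family gene (linear axis from 0) against day of differentiation, with induced arrays as red circles and untreated arrays as black squares, 1 array per point, and the background of 36.67 dotted. Bcl2l11 was higher with induction on each day, while Pmaip1, Bid and Bcl2l1 separated only at day 5.

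For a constant effect of induction limma's adjusted p for Bcl2l11 was 0.573 over all genes, and the gene did not pass. No family gene did, and 0 of the 9997 genes (0%) passed this test, with 842 (8.42%) at an unadjusted p under 0.05. In a fit that also held treatment by linear day, 145 genes (1.45%) passed, 103 (1.03%) higher and 42 (0.42%) lower, and Bcl2l11 was the only family gene among them (adjusted p = 0.0389 by limma). The change of its induction effect per day, 0.16 on the log2 scale, did not pass (adjusted p = 0.444 by limma).

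The 5 Bcl2l11 probe sets were above background on every array, and all 5 read higher in induced bodies on day 5, by 0.32 to 0.63. For 4 of the 5 the induced array was higher on each day. The exception was 1435448_at, with 401.52, 450.27 and 460.28 in induced bodies, against 552.05, 378.75 and 308.71 in untreated bodies, which was lower with induction on day 3 and higher on days 4 and 5. With the median over probe sets in place of the brightest, the mean Bcl2l11 difference was 0.10, and the day 3 difference turned to -0.36.

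**Figure D2:**
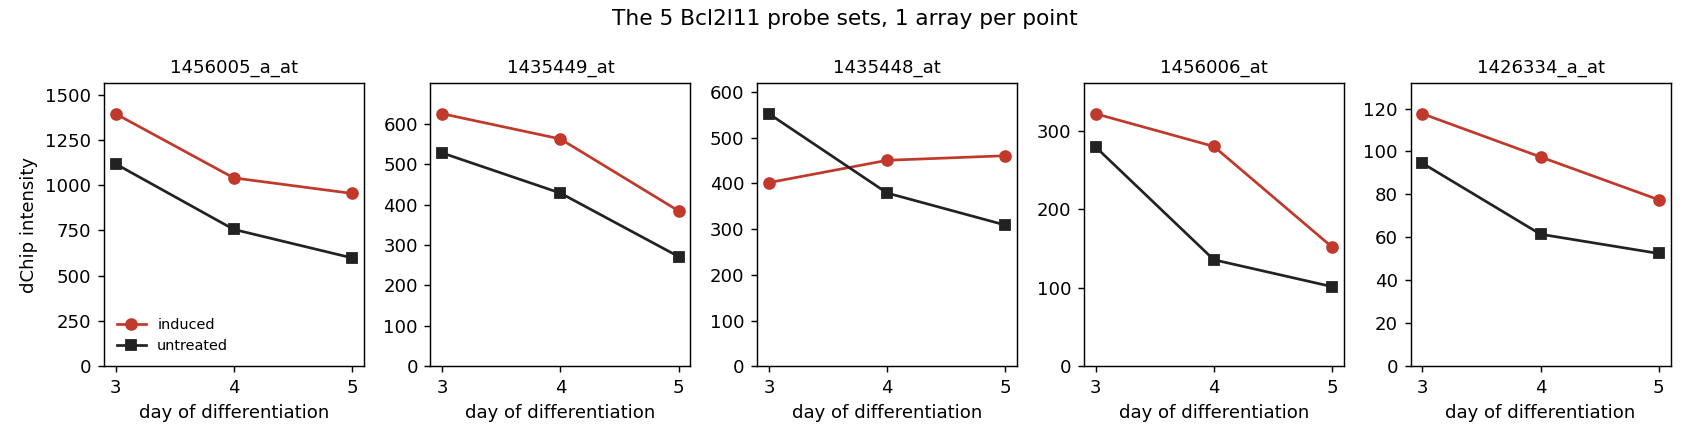
Intensity of each of the 5 Bcl2l11 probe sets (linear axis from 0, scaled per panel) against day of differentiation, with induced arrays as red circles and untreated arrays as black squares. In 4 panels the induced line lies above the untreated line on each day, and in the panel of 1435448_at the lines cross between days 3 and 4.

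Pmaip1 showed the largest day 5 difference of the family. It encodes Noxa, a BH3-only protein that neutralizes Mcl1 and a textbook p53 target, and its only probe set (1418203_at, Entrez Gene 58801) read 947.67, 1272.11 and 1059.86 in induced bodies, against 987.84, 1235.48 and 345.09 in untreated bodies. The treatments were close on days 3 and 4, and the untreated day 5 array stood apart from the other 5 arrays. The differences were -0.06, 0.04 and 1.49 on the log2 scale, which made Pmaip1 2.81-fold higher with induction on day 5. Of the tested genes, 197 (1.97%) were at least 2-fold higher with induction on that day and 152 (1.52%) at least 2-fold lower, and Pmaip1, with the higher ones, was the only family gene among them. On day 3 no family gene differed by 2-fold, beside 0.01% of tested genes higher and 0.01% lower, nor on day 4, beside 0.08% higher and 0.5% lower. The mean over days, 0.49 ± 0.87 (SD, n = 3 days), did not pass (limma adjusted p = 0.652) and was -0.01 without day 5. The change of the effect per day, 0.77 ± 0.18 (SE), did not pass either, with limma's p at 0.00564 before and 0.193 after adjustment, and 0 of the 9997 genes (0%) passed this test, against 1322 (13.2%) at an unadjusted p under 0.05.

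Bid, a BH3-only gene whose protein is cut by caspase 8 to link death receptors to mitochondria, was closest between treatments on day 3. Like Pmaip1 it was furthest apart on day 5, but it was lower on each successive day in both treatments. Its main probe set (1417045_at, Entrez Gene 12122) read 651.94, 531.57 and 470.33 in induced bodies, against 656.06, 493.56 and 300.07 in untreated bodies. The differences with induction were -0.01, 0.10 and 0.57 on the log2 scale, the last being 1.49-fold. Of its dimmer probe sets, 1448560_at differed by -0.10, 0.14 and 0.42 on the same days, while 1447873_x_at, above background on 5 of the 6 arrays, differed by 0.04, -0.10 and 0.02. The mean difference of the main set was 0.22 ± 0.31 (SD, n = 3 days; limma adjusted p = 0.630), and its change per day, 0.29, had an adjusted p of 0.303.

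Bbc3, which encodes the p53-inducible BH3-only protein Puma, barely differed between treatments. It (1423315_at, Entrez Gene 170770) read 285.34, 279.25 and 209.23 in induced bodies, against 277.66, 278.93 and 199.21 in untreated bodies. The day 5 arrays of both treatments lay below the arrays of days 3 and 4, and the differences with induction were 0.03, 0.00 and 0.06 (limma adjusted p = 0.909). The small day 4 and day 5 differences turned to -0.028 and -0.0027 with quantile normalization and to -0.0197 and -0.0009 with median centring.

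Bik, a BH3-only gene whose product sits at the endoplasmic reticulum, was near background. Its brightest probe set (1420362_a_at, Entrez Gene 12124) read 60.95, 67.11 and 42.57 in induced bodies, against 47.92, 37.13 and 15.75 in untreated bodies. It was higher with induction on each day, by 0.18, 0.43 and 0.49, but the untreated day 5 array was below background, and its other 2 probe sets were below background on all 6 arrays. The day 5 difference was 1.03 with a pseudocount of 10 and 0.17 with one of 200.

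Bak1, the measured pore-forming effector (1418991_at, Entrez Gene 12018), read 168.10, 178.18 and 210.35 in induced bodies, against 143.02, 182.87 and 181.12 in untreated bodies. Its differences were 0.18, -0.03 and 0.17, of mixed sign, with a mean of 0.11 ± 0.12 (SD, n = 3 days; limma adjusted p = 0.714). Its other probe set was below background on all arrays.

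Among the protective genes, Mcl1 (1448503_at, Entrez Gene 17210) read 5770.43, 5213.95 and 4668.03 in induced bodies, against 5492.41, 4968.84 and 4519.52 in untreated bodies. The induced array was slightly higher on each day, by 0.07, 0.07 and 0.05, which did not pass (limma adjusted p = 0.577), and the day 5 difference turned to -0.0117 with median centring. Across the 6 Mcl1 probe sets the day 5 difference ran between -0.04 and 0.17, with 4 of 6 above 0.

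Bcl2l1, which encodes the protective protein Bcl-xL, differed most on day 5 among the protective genes by its main probe set. It (1420888_at, Entrez Gene 12048) read 291.29, 408.21 and 551.01 in induced bodies, against 306.66, 448.70 and 378.56 in untreated bodies. Induced arrays were slightly lower on days 3 and 4 and higher on day 5, with differences of -0.06, -0.12 and 0.49, the last being 1.40-fold. The mean of 0.10 ± 0.34 (SD, n = 3 days; limma adjusted p = 0.837) and the change per day of 0.28 (adjusted p = 0.400) did not pass. A dimmer probe set, 1420887_a_at, read 68.15 in induced bodies and 52.49 in untreated bodies on day 5. With the median over its probe sets the day 3 difference turned to 0.07 and the day 5 difference was 0.18. Day 5 minus day 3 in induced bodies was then 0.13 in place of 0.82.

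Bcl2 itself (1457687_at, Entrez Gene 12043) read 133.09, 165.95 and 114.38 in induced bodies, against 120.04, 162.64 and 139.99 in untreated bodies. Its differences with induction were 0.11, 0.02 and -0.21, the last being the only one below 0 on day 5 among the main probe sets of the 8 tested genes (mean -0.03 ± 0.16, SD, n = 3 days; limma adjusted p = 0.946). Of its 5 probe sets, the main one alone was above background on all arrays, and with the median over probe sets the day 5 difference turned to 0.20 and day 5 minus day 3 in untreated bodies to -0.25, against 0.16.

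**Figure D3:**
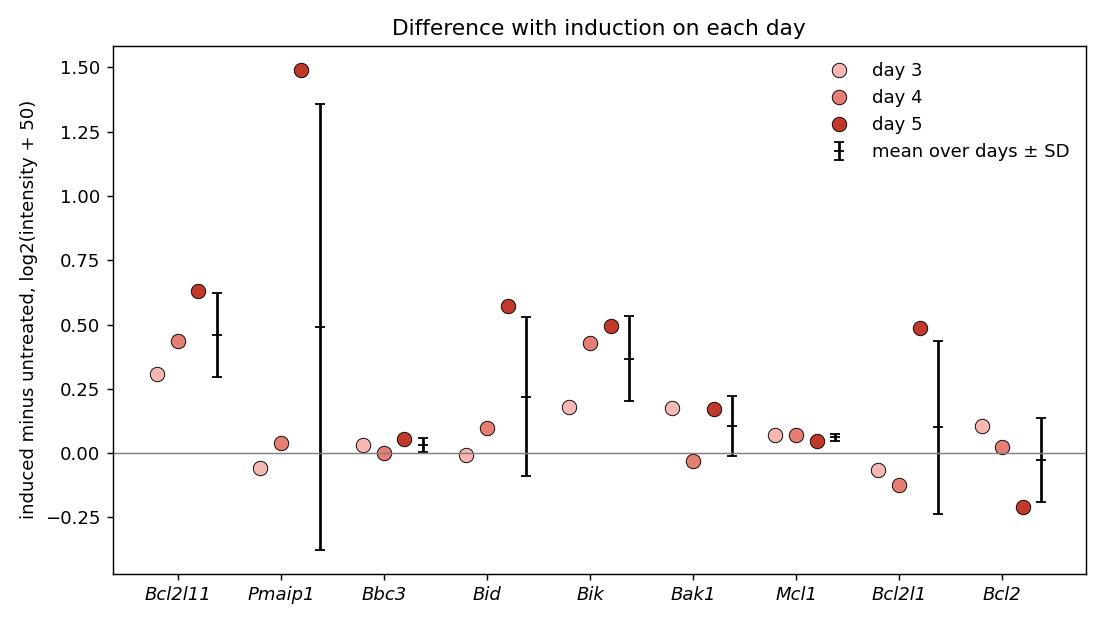
Induced minus untreated difference in log2(intensity + 50) for each measured family gene on days 3, 4 and 5 (pale to dark red points), with the mean and SD over the 3 days in black. Bcl2l11, Bbc3, Bik and Mcl1 lie above 0 on each day, Bbc3 and Mcl1 by amounts that turn below 0 on day 5 with median centring, and the widest SD, 0.87 for Pmaip1, comes from a day 5 difference of 1.49.

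Over the 8 tested family genes the median difference with induction was 0.05 on day 3, 0.03 on day 4 and 0.33 on day 5, beside medians of 0.00, 0.02 and 0.02 over all tested genes. On day 5, 7 of the 8 were higher in induced bodies, against 53.2% of all tested genes, although Bbc3 and Mcl1 fell below 0 with median centring and Bbc3 also with quantile normalization. Bcl2l11, Bbc3 and Mcl1 were above untreated on all 3 days, 3 of 8 beside 19.3% of all tested genes. Of these, Bbc3 was lost under both scalings and Mcl1 with median centring. Bcl2l11 was lost with the median over probe sets, at -0.36 on day 3. Of the 8, 0 were below untreated on all 3 days, beside 14.3% of all tested genes. The day 5 differences stood beside a higher summed level of pluripotency markers (16660 in induced bodies and 10900 in untreated bodies) and a lower sum of blood and endothelium markers (414.8 in induced bodies and 3307 in untreated bodies). Fibroblast markers, listed for feeder cells, also had a lower sum (298.3 in induced bodies and 866.3 in untreated bodies, with 0 of 3 tested higher). On days 3 and 4 their sums were 219.2 and 241.3 in induced bodies, against 228.1 and 239.6 in untreated bodies. The paper describes a passage without feeders before differentiation. The part of these markers in the result was not tested. In whole embryoid bodies, fewer cells of a type and less RNA per cell cannot be told apart.

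From day 3 to day 5, in both treatments together, 4 of the 8 tested genes fell and 0 rose, all 4 by limma's test with Benjamini-Hochberg adjustment. Over all genes 3984 (39.9%) passed, of which 1922 (19.2%) fell and 2062 (20.6%) rose. Bid changed by -0.72 ± 0.16 (SE, adjusted p = 0.0222), Bcl2l11 by -0.69 ± 0.10 (adjusted p = 0.00815), Bbc3 by -0.38 ± 0.09 (adjusted p = 0.0251) and Mcl1 by -0.29 ± 0.04 (adjusted p = 0.0049). So 3 BH3-only genes and 1 protective gene fell, while Bcl2l1 (0.54, adjusted p = 0.0592), Bak1 (0.26, adjusted p = 0.113), Bcl2 (0.00) and Pmaip1 (-0.62, adjusted p = 0.260) did not pass. All 6 Mcl1 probe sets were lower on day 5 than on day 3 in both treatments, the 5 dimmer ones by more than the main one. Leaving out day 3, so that day 5 was set against day 4, left 0 family genes past the threshold, leaving out day 4 left 2, Bcl2l11 and Mcl1, and leaving out day 5 gave 5, with Pmaip1 and Bcl2l1 higher on day 4 than on day 3. With the median over its probe sets, Bcl2l11 no longer passed (-0.45, adjusted p = 0.127).

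Within a treatment, the change between these days is given by 2 arrays. Day 5 lay below day 3 for Bid by 1.35-fold in induced bodies and 2.02-fold in untreated bodies, and for Bcl2l11 by 1.44-fold in induced bodies and 1.80-fold in untreated bodies. Pmaip1 was 1.11-fold higher on day 5 than day 3 in induced bodies and 2.63-fold lower in untreated bodies. Bcl2l1 was higher on day 5 by 0.82 in induced bodies and by 0.26 in untreated bodies on the log2 scale. Bbc3, at -0.37 in induced bodies and -0.39 in untreated bodies, and Mcl1, at -0.30 in induced bodies and -0.28 in untreated bodies, changed alike. Pmaip1 and Bid were lower by 2-fold or more in untreated and not in induced bodies, 2 of 8 beside 2.31% of all tested genes. Bid, at -1.01 in untreated bodies, was just past 2-fold. Pmaip1 alone was left with a pseudocount of 200, with median centring or with the median over probe sets. In induced bodies 0 of 8 changed by 2-fold, beside 4.67% of tested genes higher and 3.07% lower. In untreated bodies Pmaip1 and Bid were lower and 0 higher, beside 4.86% lower and 5.93% higher. Bcl2l11, Bid and Mcl1 were lower on each successive day in both treatments, 3 of 8 beside 19% of tested genes. Of these, Bcl2l11 and Mcl1 were also above untreated on each day, 2 of 8 beside 6.12%. However, Mcl1 was not above untreated on day 5 with median centring, nor Bcl2l11 on day 3 with the median over probe sets. No test of a day and treatment together is available for a single pair of days, as each value is 1 array.

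**Figure D4:**
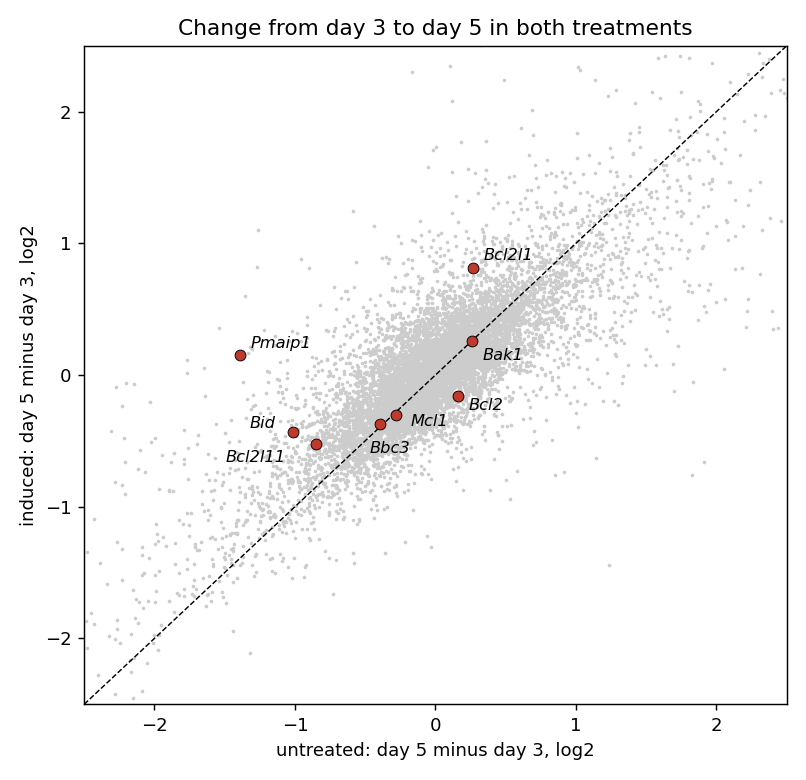
Day 5 minus day 3 in log2(intensity + 50), induced on the vertical axis and untreated on the horizontal axis, for all tested genes (gray; 168 lie outside the axes) and the 8 tested family genes (red), with equality dashed. Pmaip1, Bid, Bcl2l11 and Bcl2l1 lie above the dashed line, Bbc3, Bak1 and Mcl1 close to it, and Bcl2 below it.

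Ordered by level, low to high, the Bcl2l11 arrays ran untreated day 5, untreated day 4, induced day 5, induced day 4, untreated day 3 and induced day 3. For Pmaip1 the untreated day 5 array was lowest, 1.34 log2 units below the next, and the other 5 lay within 947.67 to 1272.11. With 1 array per treatment and day, no spread between replicate arrays is known against which neighbours in these orders could be set.

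The course of 3 family genes spanned 1 log2 unit or more, and the genes most like them over the 6 arrays, by Pearson r and as a description only since arrays share day and treatment, were as follows. For Pmaip1 they were Jade2 (r = 0.994), Zic5 (r = 0.993) and Trh (r = 0.991), of which Zic5 read 867.5, 1206 and 876.2 in induced bodies, against 824.9, 985.3 and 206.7 in untreated bodies. For Bcl2l11 they were Arhgef16 (r = 0.995), Shkbp1 (r = 0.993) and Aga (r = 0.990), and Arhgef16 read 322.2, 210.5 and 164.5 in induced bodies, against 227.4, 89.94 and 43.48 in untreated bodies. For Bid they were Cdk2ap2, Aar2 and Nxt2, at r = 0.998, 0.998 and 0.997. In each of these 9 genes, as in the 3 family genes, the untreated day 5 array was the lowest. Choosing genes by likeness over the same arrays makes this order likely, so it is no separate result.

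In a list of p53 and its target genes, which includes Bbc3 and Pmaip1 of the family, tested genes changed in both directions between days 3 and 5. Trp53, the gene of p53 itself, was not among those tested. Of 30 genes listed, 28 were measured and 24 tested, and 4 of the 24 rose and 5 fell, beside 20.6% and 19.2% of all tested genes. Ddit4 (0.96, adjusted p = 0.0225), Cdkn1a, the p21 cell cycle inhibitor (0.72, adjusted p = 0.0122), Ccng1 (0.26) and Ei24 (0.23) rose by limma's test. Gtse1 (-0.92, adjusted p = 0.00327), Aen (-0.76), Eda2r (-0.72) and Bbc3 fell the most. On day 5 the largest differences in the list were those of Pmaip1 and Perp, a desmosome gene, at 1.35, with Perp at 1075 in induced bodies and 392.1 in untreated bodies. Sesn1, which is named after its values were seen, went the other way by -1.04, with 324.7 in induced bodies and 722.4 in untreated bodies. On that day 18 of the 24 were higher with induction, beside 53.2% of all tested genes. The median over the 24 was 0.10, beside 0.02 for all tested genes. The 18 include Pmaip1 and Bbc3, of which Bbc3 fell below 0 with median centring and with quantile normalization.

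Foxo1, a transcription factor gene known for inducing BH3-only genes, showed the largest change between days 3 and 5 among 14 tested regulators of the family. It read 780.6, 589.3 and 328.6 in induced bodies, against 804.8, 504.8 and 165.1 in untreated bodies, and fell by 1.56 on the log2 scale between days 3 and 5 (limma adjusted p = 0.00641). It was higher with induction on day 5 by 0.82, which carries no test, and Foxo3, chosen after its values were seen, differed by -0.02. In the same list Ywhaz (0.31) and Hif1a (0.25) rose between the days, and Ppp1r13b differed most on day 5, by -0.97.

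FOXO factors are known to bind near Bcl2l11 and Bbc3. Among the 13 RefSeq promoter windows of the 8 family genes other than Pmaip1 and Bik, Bax included (250 bases before each start, GRCm38.p6), the motif TGTTTAC, on either strand, was found in 2, those of Bcl2l11 and Bbc3, beside 3.17% of 32851 windows of all genes. These 2 are shown, with the motif in capitals, as the searched family windows that hold it. The Bcl2l11 window is chr2:128125788-128126037 and the Bbc3 window chr7:16310011-16310260, both on the plus strand.
Bcl2l11: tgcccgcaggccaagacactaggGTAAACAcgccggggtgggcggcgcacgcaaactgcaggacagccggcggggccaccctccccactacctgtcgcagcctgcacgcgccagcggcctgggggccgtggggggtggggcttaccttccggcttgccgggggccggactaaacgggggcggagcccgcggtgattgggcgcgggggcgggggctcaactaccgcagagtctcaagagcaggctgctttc
Bbc3: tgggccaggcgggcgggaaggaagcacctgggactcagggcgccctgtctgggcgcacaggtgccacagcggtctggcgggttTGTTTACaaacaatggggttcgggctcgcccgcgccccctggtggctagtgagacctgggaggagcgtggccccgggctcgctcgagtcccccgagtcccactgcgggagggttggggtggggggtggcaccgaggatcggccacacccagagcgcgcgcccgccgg
The Bcl2l11 window holds the motif on the minus strand and the Bbc3 window on the plus strand. A match in such a window is not a binding site, and its part in the levels of either gene was not tested. FOXO was among several motifs searched in these windows, and its count was not tested against its background. An E2F motif was found in a Bcl2l1 window, beside 0.256% of all windows. Myc type motifs were in windows of Bbc3 and Bax, beside 6.02%. GC boxes were in windows of Bbc3, Bcl2, Bcl2l11, Mcl1, Bax and Bid, beside 32.7%. Another box motif was in windows of Bbc3 and Bcl2l11, beside 33.8%. Zeb and Snail sites are given below.

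Other members of the family and its partners showed day 5 minus day 3 changes in both directions, by limma's test. Of 17 genes listed, 13 were measured and 9 tested. Of the 9, 2 rose and 1 fell, beside 20.6% and 19.2% of all tested genes. Bmf, a BH3-only gene, at 1.44 (adjusted p = 0.00289) and Bcl2l13 at 0.68 (adjusted p = 0.0152) rose. Bok, a Bax-like effector gene, at -1.42 (adjusted p = 0.00219) fell. Bmf read 126.7, 151.3 and 400.9 in induced bodies, against 115.2, 108.3 and 428.3 in untreated bodies, so a BH3-only gene rose where Bcl2l11 and Bid fell. The largest day 5 differences in this list were those of Bnip3 (-0.50) and Bnip2 (-0.30). Bnip3 had the opposite sign on day 4, by 0.61, with 3038 in induced bodies and 1975 in untreated bodies.

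Downstream, 4 of 12 tested genes of mitochondrial release and the apoptosome passed between days 3 and 5, beside 39.9% of all tested genes, a share against which the counts of the lists that follow are also to be set. Cycs, the cytochrome c gene (0.26, adjusted p = 0.00345), Apaf1, the apoptosome scaffold (0.31), and Gsdme (0.27) rose, and Endog, a mitochondrial nuclease gene, fell (-0.82, adjusted p = 0.0324) by limma's test. On day 5 Htra2 and Endog differed most with induction, by -0.43 each, while Endog differed by 0.39 on day 4. Among 4 tested caspases, Casp6 (0.58) and Casp8 (0.35) rose and Casp2 (-0.45) fell. Casp8, the initiator caspase of death receptors, read 163.9, 188.0 and 221.4 in induced bodies, against 112.9, 117.9 and 157.6 in untreated bodies, all 3 induced above all 3 untreated. That order was met by 2.98% of all tested genes, and limma's p of 0.00311 became 0.573 after adjustment.

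Of 6 tested inhibitors of apoptosis, Xiap alone passed (0.29, adjusted p = 0.0248 by limma), and Birc2 (0.35) and Birc3 (0.22) differed most with induction on day 5. Of 7 tested death receptor genes, Ptpn13 (1.32, adjusted p = 0.00216) rose along with Casp8, and Casp8 (0.39) and Tnfrsf1a (0.36) differed most on day 5, with Tnfrsf1a at -0.48 on day 3. Of 9 tested apoptotic substrates and execution genes, Gsn (1.85, adjusted p = 0.00278), encoding the actin-severing protein gelsolin, and Rock1 (0.20) rose and Acin1 (-0.40) fell. Gsn differed by 0.84 with induction on day 5 and Dffb, the apoptotic nuclease, by 0.14, after -0.26 on day 4. In none of these lists did a gene pass for induction over the days or for a change of its effect per day, as for 0 of all 9997 tested genes.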

How the data were processed

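Total RNA of 6 samples was measured on Affymetrix MOE430 2.0 arrays. The deposited values are intensities, which the authors normalized and modelled in dChip to 1 linear value per probe set and array. No detection calls came with them, and precision is limited by the number of arrays. Of 45037 probe sets, 932 with several symbols and 9160 with none were left out, and 18193 genes remained, each with its brightest probe set. Genes whose highest value reached 80.11, the median of all gene values, were tested on log2(intensity + 50). Tests used lmFit and eBayes with an intensity trend in limma 3.58.1 (R 4.3.3), two-sided, with Benjamini-Hochberg adjustment at 0.05. Induction over days 3 to 5 and day 5 minus day 3 came from a fit of treatment and day as a factor (2 residual degrees of freedom), and the effect per day from treatment by linear day (1 residual degree of freedom). The p-values set each coefficient against the moderated residual of these models. As dishes were not replicated within a day, that residual is not a spread between replicates. Differences within a day were counted at 2-fold, untested. Alternatives were pseudocounts of 10 and 200, quantile normalization, median centring, no filter, a minimum of 200, the median over probe sets, every probe set, treatment by linear day in the fit, and leaving out each day.

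Named were all 10 family genes, from each pathway list the genes past a threshold (beyond 6, the 4 largest each way) with the 2 largest day 5 differences, and the 3 genes most like each family gene that ranged over 1 log2 unit. The family genes and lists were chosen with earlier results of these data known.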

Additional observations from a re-analysis of the deposited data

Results flagged for a closer look

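By the main probe sets, the sign of the induced minus untreated difference on day 5 was the opposite of that on day 3 for 4 family genes. How many of all tested genes changed sign in this way was not counted, so this number has no background beside it. Of all tested genes, 51.8% were above 0 on day 3 and 53.2% on day 5. With the median over probe sets, 2 of the 4 family genes, Bcl2 and Bcl2l1, did not change sign. The differences on days 3 and 5 were then 0.13 and 0.20 for Bcl2 and 0.07 and 0.18 for Bcl2l1. With the main probe sets, the day 5 difference minus the day 3 difference was 1.55 for Pmaip1, 0.58 for Bid, 0.55 for Bcl2l1 and -0.32 for Bcl2 on the log2 scale. Each of these values rests on 4 arrays and carries no error of its own. The change of the effect per day did not pass by limma for any of them, with adjusted p-values of 0.193 for Pmaip1, 0.303 for Bid, 0.400 for Bcl2l1 and 0.578 for Bcl2. For Bid and Bcl2l1 the day 3 difference was close to 0, at -0.01 and -0.06. Median centring added 0.0161 to each day 3 difference, more than the size of the Bid value of -0.0084. Bid was then above 0 on both days and did not change sign.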

How the results depend on the processing

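The labels carry no replicate numbers, and the arrays pair by day alone, which stood in the fit as a factor. Genes past the threshold for induction numbered 0, with a range of 0 to 2 when a day was left out and 145 with treatment by linear day in the fit, which called 1 family gene, Bcl2l11 (0.46, adjusted p = 0.0389). Between days 3 and 5 the 3984 genes became 6661 features when every probe set was fitted, a change in the number of features, and 241 to 2958 genes when a day was left out, with 0 to 5 family genes. For the effect per day, 35 genes passed with the median over probe sets and 155 with every probe set. At 2-fold with induction, the 2 genes of day 3 became 9 with a pseudocount of 10, 1 with one of 200, 1 with median centring, 1 with the median over probe sets and 4 with every probe set. The 58 genes of day 4 became 111 with a pseudocount of 10 and 18 with one of 200, and the 349 of day 5 became 165 with one of 200. Between days 3 and 5 at 2-fold, a pseudocount of 200 gave 373 genes in induced bodies (774 with 50) and 523 in untreated bodies (1079 with 50). Of the 2 family genes at 2-fold in untreated bodies, 1 was left with a pseudocount of 200, with median centring and with the median over probe sets.

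Signs turned for 5 of the tested family genes in the fitted comparisons, Pmaip1, Bcl2, Bcl2l1, Bbc3 and Bak1. With the median over probe sets, differences of single days turned as well, among them those of Bcl2l11 (-0.36 on day 3), Bcl2 (0.20 on day 5) and Bcl2l1 (0.07 on day 3). When a day was left out, the induction difference ranged between -0.0082 (without day 5) and 0.7653 (without day 3) for Pmaip1, between -0.0933 (without day 3) and 0.0645 (without day 5) for Bcl2, and between -0.0929 (without day 5) and 0.2122 (without day 4) for Bcl2l1. The change over the remaining days ranged between -0.9773 (without day 3) and 0.3575 (without day 5, adjusted p = 0.0121) for Pmaip1, and between -0.2781 (without day 3) and 0.2803 (without day 5) for Bcl2, which was -0.0008 with quantile normalization. The Bbc3 effect per day was -0.0167 with quantile normalization and -0.0252 with median centring, and the Bak1 effect per day was 0.0024 with a pseudocount of 200. Bbc3 no longer passed between days 3 and 5 without the filter (adjusted p = 0.0524), and Bcl2l1 passed with median centring (adjusted p = 0.0438). The cause of these changes was not tested. With 1 array per treatment and day, differences near 0 have no replicate check.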

Other observations

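Zeb and Snail repressors, textbook partners of the miR-200 family, bind the sequence CACCTG. On either strand it was found in 1 of the 13 family promoter windows searched, beside 17.2% of all windows of the same length. The 13 leave out Pmaip1 and Bik, and the 1 with a match was the Bbc3 window shown above, which held 2. The GC content of the printed windows was 72% for Bcl2l11 and 72.4% for Bbc3, against a median of 52.4% over all windows.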
